A study of Mus musculus with 36 samples.

Results

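The proximal forelimb of mouse embryos at stage E12.5 was compared between the alleles Del(CBS1-4) and Del(CBS1-3), with 3 RNA-seq libraries of each. The 6 libraries were chosen by the tissue and genotype in their titles, out of 36 libraries in 12 groups of 3 in the series. CBS stands for a binding site of CTCF, and the sites of the Hoxd cluster were deleted with CRISPR/Cas9. Both alleles lack sites 1 to 3, and Del(CBS1-4) lacks the fourth site as well, so the comparison asks what differs once the fourth site is also missing. All embryos were of the strain B6CBAF1, and each library was made from poly(A) RNA of the micro-dissected proximal forelimbs of an individual. The sources used here do not state whether the embryos were homozygous, how many founder lines stood behind each allele, or where the deleted sites lie. The p-values measure the spread between these embryos. Loss of the fourth site cannot be told apart here from other differences between the embryos of each allele. Such differences include line, litter, exact stage and dissection. The other groups were WT, Del(CBS1), Del(CBS1-2) and Del(CBS1-5) in proximal forelimb and the same 6 genotypes in distal forelimb.

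The Hoxd genes encode homeodomain transcription factors and lie side by side on chromosome 2. In the limb they are switched on from enhancers in the gene deserts on either side of the cluster: the telomeric side acts in the future arm and forearm, on Hoxd3 to Hoxd11, and the centromeric side acts in the future digits, on Hoxd9 to Hoxd13 and on Evx2, the neighbour of Hoxd13. CTCF stops the extrusion of chromatin loops by cohesin, and the array of CTCF sites within the cluster lies where the telomeric and centromeric domains meet. Proximal forelimb cells normally hold Hoxd13 and Evx2 at low levels. A more distal position in the limb bud is marked by high Hoxd13, Hoxa13 and Evx2, and a proximal position by Meis1, Meis2 and Shox2.

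The sequences just upstream of 4 genes are shown because these genes, Hoxd13, Evx2, Hoxd10 and Hoxa13, carried the Hox differences described next. Each window is the 250 bases before the RefSeq start on GRCm38.p6, printed 5′ to 3′ on the strand of its gene. Capitals mark matches, on either strand, to the TATA box (spelt TATAAA), the CCAAT box (named for its letters) and the GC box (spelt GGGCGG), and a search was also made for the core of the CTCF motif. Adjoining and overlapping matches run together.
Hoxd13 upstream window: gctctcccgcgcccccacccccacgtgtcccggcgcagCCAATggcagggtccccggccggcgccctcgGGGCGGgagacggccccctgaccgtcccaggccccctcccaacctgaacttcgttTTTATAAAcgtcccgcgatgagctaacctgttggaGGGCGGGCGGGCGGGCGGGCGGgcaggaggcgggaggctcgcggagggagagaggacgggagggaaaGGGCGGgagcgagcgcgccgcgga
Evx2 upstream window: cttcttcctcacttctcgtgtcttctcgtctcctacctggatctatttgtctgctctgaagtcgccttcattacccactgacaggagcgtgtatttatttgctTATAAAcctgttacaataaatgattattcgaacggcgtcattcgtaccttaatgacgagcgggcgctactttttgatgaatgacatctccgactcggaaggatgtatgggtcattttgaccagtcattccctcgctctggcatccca
Hoxd10 upstream window: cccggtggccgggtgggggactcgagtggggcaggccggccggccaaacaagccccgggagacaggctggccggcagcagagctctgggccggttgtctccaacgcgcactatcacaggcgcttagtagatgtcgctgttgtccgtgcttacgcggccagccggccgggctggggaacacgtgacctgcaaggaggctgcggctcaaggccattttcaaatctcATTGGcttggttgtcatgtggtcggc
Hoxa13 upstream window: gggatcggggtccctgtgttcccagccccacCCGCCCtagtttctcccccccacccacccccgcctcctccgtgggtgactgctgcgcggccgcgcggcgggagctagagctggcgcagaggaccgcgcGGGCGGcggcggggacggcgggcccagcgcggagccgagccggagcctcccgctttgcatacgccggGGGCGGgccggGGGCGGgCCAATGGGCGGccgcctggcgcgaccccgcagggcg

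The Hoxd13 window (chr2:74667975-74668224, + strand) was 74.4% G or C and held 31 CpG pairs, against medians of 52.4% and 6 over 32851 such windows of all RefSeq genes. It held 7 GC boxes, of which 5 overlapped in a run, 1 CCAAT box and 2 overlapping TATA boxes, 1 on each strand. The Evx2 window (chr2:74659558-74659807, - strand) was the poorest of the 4 in G and C, at 45.6%, and held 1 TATA box and no GC box. The Hoxd10 window (chr2:74691641-74691890, + strand) held 1 CCAAT box, on the opposite strand. The Hoxa13 window (chr6:52260881-52261130, - strand) was 80% G or C, with 5 GC boxes and 1 CCAAT box. A TATA box was found in 12.4% of all windows, a CCAAT box in 33.8% and a GC box in 32.7%. The CTCF core was found in 2.07% of all windows and in none of these 4, which says only that these letters are absent from the 250 bases shown.

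Levels are given as CPM, read counts relative to library size, scaled by TMM over all 36 libraries. A gene was called when the Benjamini-Hochberg adjusted p of edgeR's quasi-likelihood test was under 0.05 over all 15813 genes tested, and every adjusted p below is of that kind. Log2 fold changes (log2FC) are Del(CBS1-4) minus Del(CBS1-3), with their standard error (SE) and n = 3 against 3. Total counts of the 6 libraries ran from 13011373 to 13910232. Library pairs within a group differed by more than sampling noise. The tissue label held: Shox2 lay between 249 and 427 CPM in the 6 proximal libraries and between 2.68 and 26.6 CPM in the 6 distal libraries of the same alleles, and Hoxa13 averaged 9.95 and 42.8 CPM here against 186 and 184 CPM distally. By Xist and 4 Y-linked genes, Del(CBS1-3) held 2 male embryos and 1 female, and Del(CBS1-4) 1 male and 2 female. As these are bulk samples, fewer cells of a type and less RNA per cell cannot be told apart in any result below.

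Hoxd13 and Hoxd10 were called higher in Del(CBS1-4), and no gene of the Hoxd cluster was called lower. Of the 9 genes of the cluster, 8 had enough reads to be tested and 2 were called, where 13.8% of all genes tested were called (6.5% higher and 7.29% lower). The median log2FC of the 8 was 0.12, against 0.0025 over all genes. Evx2 and an unnamed transcript between Hoxd10 and Hoxd9 were higher as well. No other of the 11 gene models tested from Evx2 to Hoxd1 was called. These calls were not firm: of 6 runs that each left out 1 library, Hoxd13 was called in 1, Evx2 in 2, Hoxd10 in 3 and the transcript in 5.

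Hoxd13 (ENSMUSG00000001819, mm10 chr2:74668310-74671599), the terminal gene of the cluster and a digit gene, read 23.8, 14.7 and 21.6 CPM in Del(CBS1-3) replicates 1 to 3, and 80.8, 58.5 and 22.2 CPM in Del(CBS1-4). Replicates 1 and 2 of Del(CBS1-4) stood above every Del(CBS1-3) library, while replicate 3 lay within their range. The log2FC was 1.42 (SE 0.44, adjusted p = 0.0401). The call was lost when any of the 6 libraries except Del(CBS1-4) replicate 3 was left out. Without Del(CBS1-4) replicate 1, the log2FC was 1.01 and the adjusted p 0.189.

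Evx2 (ENSMUSG00000001815, chr2:74652991-74659557), a homeobox gene 8752 bases from Hoxd13 on the opposite strand, had 2, 1 and 1 counts in the Del(CBS1-3) libraries. In Del(CBS1-4) it had 95, 48 and 10 counts, or 7.26, 3.44 and 0.729 CPM, and the groups did not overlap. The ratio of summed counts relative to library size was 37.5, with a 95% counting interval of 14.4 to 139, which covers counting error only. The fitted log2FC was 5.11 (SE 1.5, adjusted p = 0.0322), and the call was lost on leaving out any one of the Del(CBS1-3) libraries or Del(CBS1-4) replicate 1. Evx2 did not pass the filter on low counts when only the 6 libraries were fitted, nor the FPKM minimum, so those fits give no value for it, and its test rests on the fit with the other genotypes. As for Hoxd13, the order of the Del(CBS1-4) libraries was replicate 1, then 2, then 3.

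Hoxd10 (ENSMUSG00000050368, chr2:74691924-74695105), which is transcribed in forearm and digits, read 102, 93.1 and 113 CPM in Del(CBS1-3) and 134, 121 and 125 CPM in Del(CBS1-4). The groups did not overlap, and the difference was small, with a log2FC of 0.30 (SE 0.08, adjusted p = 0.0204). The call was lost without Del(CBS1-3) replicate 1 or 2 or without Del(CBS1-4) replicate 1, where the log2FC was 0.26 (adjusted p = 0.086). Between Hoxd10 and Hoxd9, with gaps of 414 and 361 bases, lies the lincRNA model Gm14396 (ENSMUSG00000086077, chr2:74695520-74697365). Its level was 3.66, 2.67 and 4.00 CPM in Del(CBS1-3) and 7.95, 5.16 and 6.85 CPM in Del(CBS1-4), without overlap. Its log2FC was 0.94 (SE 0.22, adjusted p = 0.0104), or 0.80 (adjusted p = 0.0541) without Del(CBS1-4) replicate 1. Gm14396 was singled out after its values were seen, and it overlaps the model Gm28793, which had at most 5 counts in a library.

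The other genes of the cluster did not pass the test. Hoxd12 averaged 41.3 CPM in Del(CBS1-3) and 47.7 CPM in Del(CBS1-4), with a log2FC of 0.20 (adjusted p = 0.454), and Hoxd11 62.1 and 56.2 CPM, with a log2FC of -0.15 (adjusted p = 0.382). Hoxd9 averaged 53.0 and 48.8 CPM, and Hoxd8 23.3 and 24.0 CPM. Hoxd4 and Hoxd3, whose gene models overlap so that reads may be shared between them, averaged 9.67 and 10.02 CPM, and 2.41 and 3.46 CPM. The log2FC of Hoxd3 was 0.52 (SE 0.29, adjusted p = 0.238). Hoxd1, at the far end, had 3, 6 and 0 counts against 2, 4 and 0 and was not tested.

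**Figure D1:**
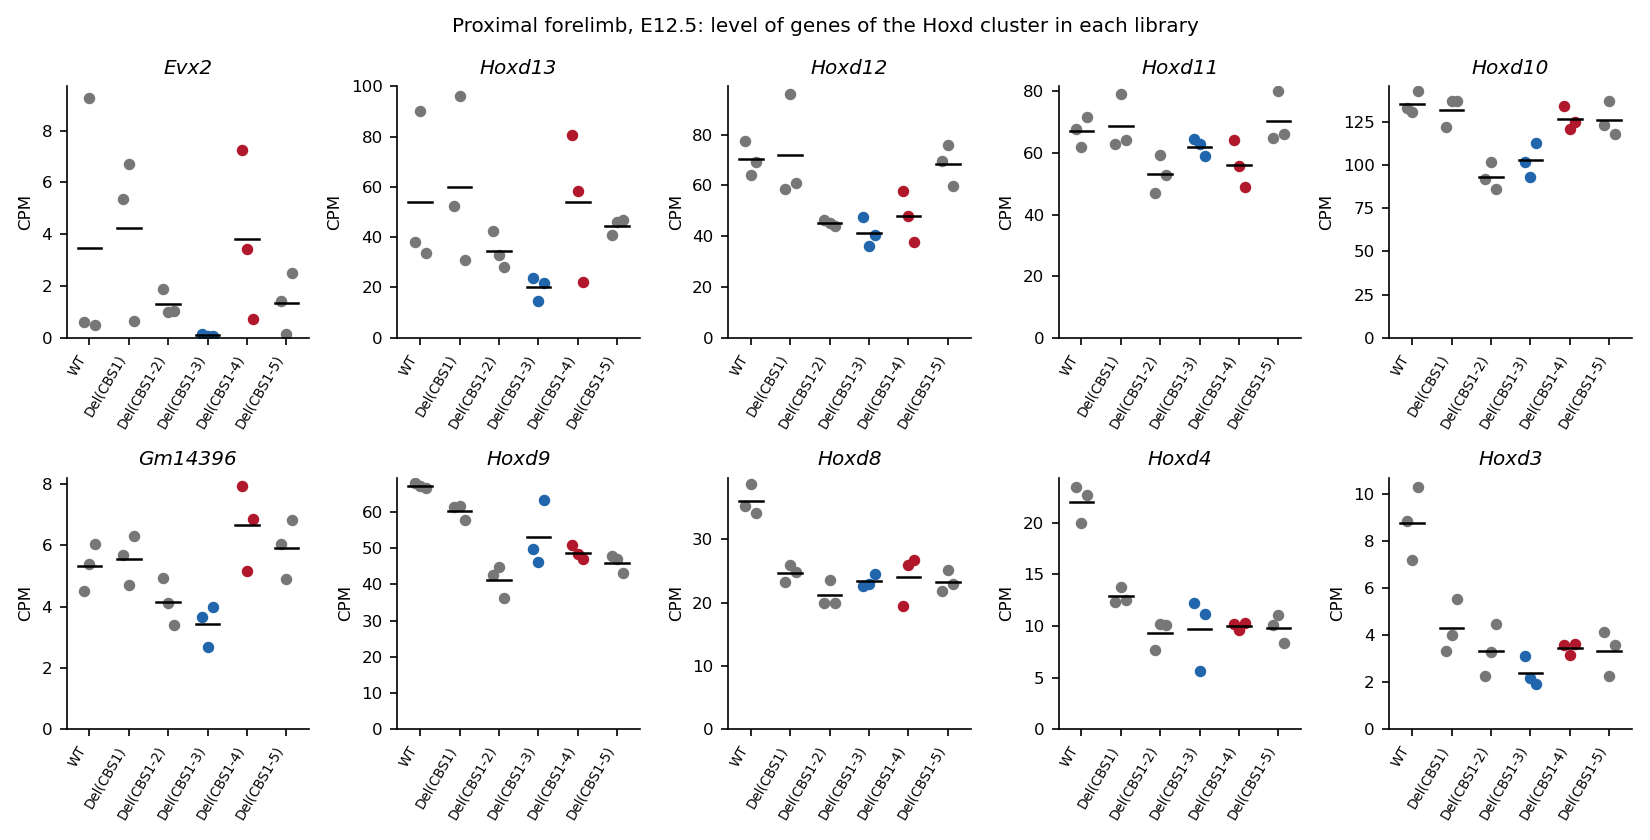
Level (CPM, vertical axes from 0) of Evx2, Hoxd13 to Hoxd3 and Gm14396 in the 18 proximal forelimb libraries, 3 per genotype on the horizontal axis, with bars for the mean. Del(CBS1-3) is blue and Del(CBS1-4) red. Hoxd13 and Evx2 spread widely within WT, Del(CBS1) and Del(CBS1-4), Hoxd10 is lower in Del(CBS1-2) and Del(CBS1-3) than in Del(CBS1-4), and Hoxd8 and Hoxd4 are below WT in every library of the 5 deletion alleles.

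Set among the other genotypes, the Del(CBS1-4) levels of the genes called at the cluster lay near WT and the Del(CBS1-3) levels below it. Hoxd13 averaged 54.1 CPM (SD 31.5) in WT, 20.1 (SD 4.73) in Del(CBS1-3), 53.8 (SD 29.6) in Del(CBS1-4) and 44.6 (SD 3.2) in Del(CBS1-5). Hoxd10 averaged 136 CPM (SD 6.34) in WT, 93.3 (SD 8.11) in Del(CBS1-2), 103 (SD 9.91) in Del(CBS1-3), 127 (SD 6.92) in Del(CBS1-4) and 126 (SD 9.66) in Del(CBS1-5). Against WT, the log2FC of Hoxd10 was -0.40 (SE 0.08, adjusted p = 0.0645) in Del(CBS1-3) and -0.10 (SE 0.08, adjusted p = 0.573) in Del(CBS1-4). That of Hoxd13 was -1.44 (SE 0.44, adjusted p = 0.187) and -0.02 (SE 0.41, adjusted p = 0.992), so neither allele passed the test for either gene against WT.

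The genes at the other end of the cluster kept their distance from WT in both alleles. Hoxd4 averaged 22.1 CPM (SD 1.86) in WT, 9.67 (SD 3.53) in Del(CBS1-3) and 10.02 (SD 0.36) in Del(CBS1-4), and Hoxd8 36.1 (SD 2.37), 23.3 (SD 0.999) and 24.0 (SD 4.03). Both genes were called lower than WT in Del(CBS1-3), with adjusted p of 0.0275 for Hoxd4 and 0.0426 for Hoxd8, as was Hoxd3 (log2FC -1.86, adjusted p = 0.0275). The log2FC of Del(CBS1-4) against WT was of like size, -1.14 and -0.59, with adjusted p of 0.0888 and 0.11. At the step from Del(CBS1-4) to Del(CBS1-5), no gene of the cluster was called, and the smallest adjusted p was 0.0504, of Hoxd12 (log2FC 0.53). These comparisons share their control libraries with each other.

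Among the 15 tested neighbours of the cluster, Evx2 was called higher and Atp5g3 and Scrn3 lower (20% called). Atp5g3, a subunit of the mitochondrial ATP synthase, read 258, 277 and 279 CPM in Del(CBS1-3) and 226, 236 and 224 CPM in Del(CBS1-4) (log2FC -0.25, SE 0.05, adjusted p = 0.00539). Scrn3 read 20.6, 20.2 and 20.5 CPM and 18.1, 17.3 and 16.2 CPM (log2FC -0.26, SE 0.08, adjusted p = 0.0347), and its call was lost on leaving out any of the 6 libraries. Lnpk, next to Evx2 and a shaper of the endoplasmic reticulum, averaged 27.4 and 31.7 CPM and was not called (log2FC 0.20, adjusted p = 0.176). Within 5 Mb of the Hoxd13 start, 10 of 79 genes were called (12.7%), and on the whole of chromosome 2, 174 of 1273 (13.7%), shares near the background of 13.8%.

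The Hoxd13 and Evx2 levels moved with a score of distal against proximal limb genes. The score is the mean log2 CPM of 27 distal patterning genes minus that of 20 proximal ones, with no Hox gene among them. It was -2.21, -2.29 and -2.16 in the Del(CBS1-3) libraries, and -1.51, -1.71 and -2.21 in Del(CBS1-4) replicates 1 to 3. Del(CBS1-4) replicate 3, with a score inside the Del(CBS1-3) range, also had its Hoxd13 level inside that range. Its levels of Hoxd10 (125 CPM), Evx2 (0.729 CPM) and Hoxa13 (20.8 CPM) were above all 3 Del(CBS1-3) libraries, which reached 113, 0.153 and 10.4 CPM. With the score as a covariate, the log2FC was 0.68 (adjusted p = 0.293) for Hoxd13, 2.92 (adjusted p = 0.179) for Evx2, 0.30 (adjusted p = 0.0678) for Hoxd10 and 0.89 (adjusted p = 0.0472) for Gm14396. The score comes from the same libraries, and its genes may themselves differ with the allele. Position in the limb bud and an effect of the allele therefore cannot be told apart by this covariate, and neither was tested as a cause. With sex as a covariate, Hoxd10 (adjusted p = 0.0367) and Gm14396 (adjusted p = 0.0198) stayed called, and Hoxd13 (log2FC 1.44, adjusted p = 0.058) and Evx2 (4.94, adjusted p = 0.0566) did not.

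**Figure D2:**
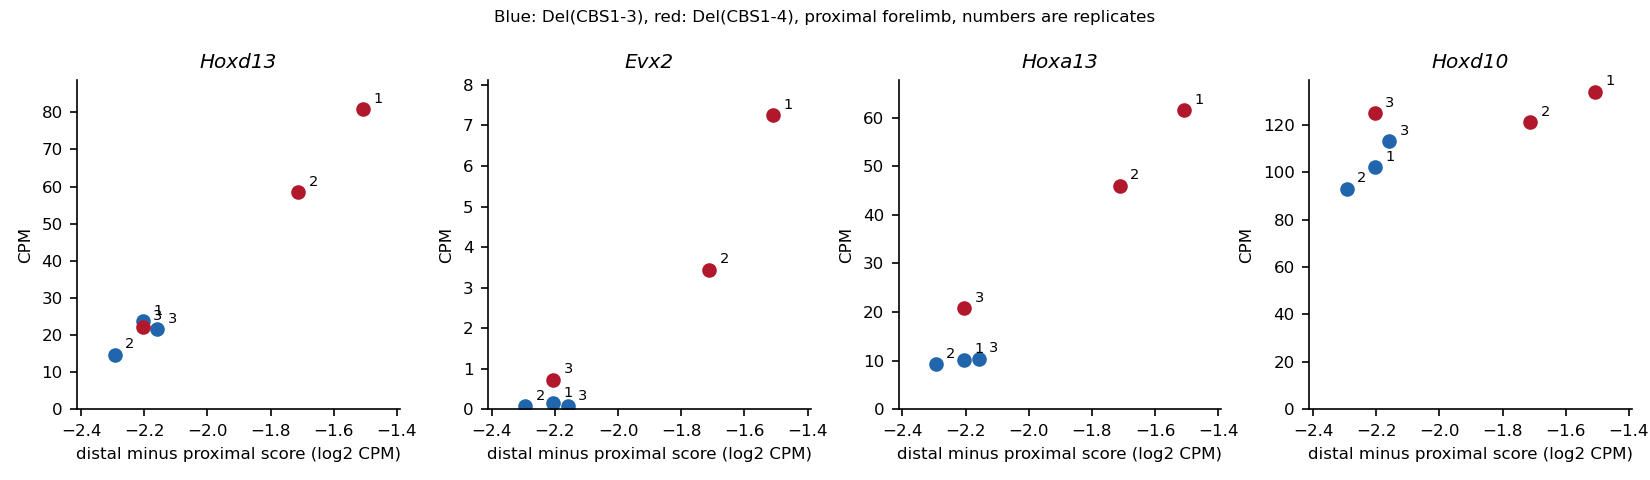
Level (CPM, vertical axes from 0) of Hoxd13, Evx2, Hoxa13 and Hoxd10 against the distal minus proximal score (log2 CPM, horizontal axes) in the 3 Del(CBS1-3) libraries (blue) and the 3 Del(CBS1-4) libraries (red), numbered by replicate. Del(CBS1-4) replicates 1 and 2 lie apart at high scores, and replicate 3, at a score of -2.21, is within the Del(CBS1-3) range for Hoxd13 and above it for Evx2, Hoxa13 and Hoxd10.

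Across the genome, 2181 of 15813 genes were called, 1028 higher and 1153 lower in Del(CBS1-4), most of them by a small amount. The median absolute log2FC of the called genes was 0.32, and 541 genes (3.42%) were called and differed by more than 1.5-fold, 381 higher and 160 lower. Of the called genes, 2075 had no overlap between the 3 and 3 libraries, which was so for 4906 of all genes tested (31%). On the deposited FPKM values, limma called 476 genes higher and 1517 lower of 12834 tested, so the balance of higher and lower genes was not the same in that fit. The table, the test, the filter and the scaling all differed there, and the median log2FC over all genes was -0.041. Which of these moved the balance was not tested. With the distal minus proximal score as a covariate, 653 genes were called. The count was 822 without Del(CBS1-4) replicate 1, 922 without Del(CBS1-3) replicate 3, 1013 without Del(CBS1-3) replicate 1, 1218 without Del(CBS1-4) replicate 3 and at least 2109 without either of the others.

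The genes called higher had a greater exonic length at the median than those called lower. Exonic length is that of all annotated exons of a gene merged, not of a single transcript. Its median was 6286 bases for the genes called higher, 3370 for those called lower and 4154 for all genes tested, by GENCODE M21. Processed and other pseudogenes made up 10.6% of the genes called lower by more than 1.5-fold, 3.67% of those called higher by that much and 2.71% of all genes tested. Whether length or RNA quality had a part in the calls was not tested.

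Outside the Hoxd cluster and its neighbours, and among named genes averaging at least 50 counts in the higher group without overlap between groups, the largest increases were in Rps3a1 and Rpl26, genes of the small and the large ribosomal subunit. Rps3a1 read 1.14, 1.37 and 1.85 CPM in Del(CBS1-3) and 73.1, 96.4 and 41.4 CPM in Del(CBS1-4) (log2FC 5.58, SE 1.06, adjusted p = 0.00426). Rpl26 read 1.37, 1.23 and 2.00 CPM, and 47.7, 46.0 and 47.4 CPM (log2FC 4.93, SE 1.07, adjusted p = 0.00826). Both genes were as different in distal forelimb, with log2FC of 5.54 and 4.86. Rps3a1 was as low in Del(CBS1-2), at 1.55 CPM (SD 0.50), and ranged from 2.49 to 84.7 CPM among the 3 WT libraries, as Rpl26 did from 1.4 to 82.7 CPM. Rtraf-ps, a processed pseudogene and the largest decrease, read 17.9, 14.9 and 18.3 CPM against 0.917, 0.215 and 1.09 CPM (log2FC -4.52, SE 0.94, adjusted p = 0.00677), and ranged from 0.563 to 16.4 CPM in WT. These genes have close copies or parent genes elsewhere in the genome, so how reads were shared between copies is uncertain.

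Among the other large increases were 3 genes of early embryonic and limb patterning. Hoxa13, the digit gene of the Hoxa cluster and the closest relative of Hoxd13, read 10.2, 9.24 and 10.4 CPM in Del(CBS1-3) and 61.5, 46.0 and 20.8 CPM in Del(CBS1-4) (log2FC 2.10, SE 0.47, adjusted p = 0.00963). The groups did not overlap, and the Del(CBS1-4) libraries stood in the same order as for Hoxd13. With the distal minus proximal score as a covariate the log2FC was 1.08 (adjusted p = 0.0148), and without Del(CBS1-4) replicate 1 it was 1.74 (adjusted p = 0.051). Eomes, a T-box transcription factor, read 1.53, 1.3 and 0.385 CPM, and 17.2, 14.8 and 8.82 CPM (log2FC 3.64, SE 0.68, adjusted p = 0.00393), and averaged 9.36 CPM (SD 5.22) in WT. Cer1, a secreted inhibitor of Nodal and BMP signals, averaged 0.922 and 4.38 CPM without overlap (log2FC 2.23, SE 0.56, adjusted p = 0.0163), and lost its call without Del(CBS1-3) replicate 1 or 3 or Del(CBS1-4) replicate 1.

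Smpd3, a sphingomyelinase of growing bone and cartilage, read 1.14, 3.54 and 0.846 CPM in Del(CBS1-3) and 11.2, 5.66 and 14.7 CPM in Del(CBS1-4) (log2FC 2.48, SE 0.46, adjusted p = 0.0038). It averaged 10.6 CPM in Del(CBS1-2) and 1.5 CPM in WT. Tnn, which encodes the matrix protein tenascin-W, had a log2FC of 1.89 (SE 0.40), the glutamate transporter gene Slc1a2 1.87 (SE 0.28) and the meiotic helicase gene Hfm1 4.26 (SE 1.24). Hfm1 lost its call on leaving out any of the 6 libraries, and it read 0.388, 7.89 and 0.681 CPM in WT. Synpr, Mroh7 and Nlrp5-ps completed these 12 largest increases, with log2FC of 1.80, 1.95 and 2.05, and 3 unnamed gene models were passed over. The Nlrp5-ps call was lost without Del(CBS1-3) replicate 1 or 2 or Del(CBS1-4) replicate 1 or 3, and the Synpr call without Del(CBS1-3) replicate 1.

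Among the largest decreases were the red blood cell genes Hbb-bh1, Hba-x and Hemgn and 2 Hoxc genes. Hoxc6 read 7.55, 4.55 and 9.39 CPM in Del(CBS1-3) and 2.67, 1.94 and 2.11 CPM in Del(CBS1-4) (log2FC -1.68, SE 0.33, adjusted p = 0.00469). Its neighbour Hoxc5 read 9.76, 4.98 and 9.70 CPM, and 0.917, 1.58 and 3.94 CPM (log2FC -1.92, SE 0.51, adjusted p = 0.0204). Hoxc genes mark the anterior-posterior axis of the trunk, and in WT the means were 5.32 CPM for Hoxc6 and 4.24 CPM for Hoxc5. Hoxc5 lost its call without Del(CBS1-3) replicate 1 or 3 or Del(CBS1-4) replicate 1 or 2. The phosphatase gene Acp1 fell (log2FC -1.65, SE 0.34), as did Hddc3, a phosphohydrolase gene (-1.63, SE 0.33), Rab3b of vesicle transport (-1.83, SE 0.37), Crym, which encodes a binding protein of thyroid hormone (-1.54, SE 0.29), and the non-coding Eldr (-1.85, SE 0.51). Hddc3 and Acp1 also varied widely among the WT libraries, at 38.4, 11.7 and 10.6 CPM and at 19.7, 21.5 and 10 CPM. Eldr lost its call without Del(CBS1-3) replicate 3 or any Del(CBS1-4) library, and 6 unnamed gene models were passed over.

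**Figure D3:**
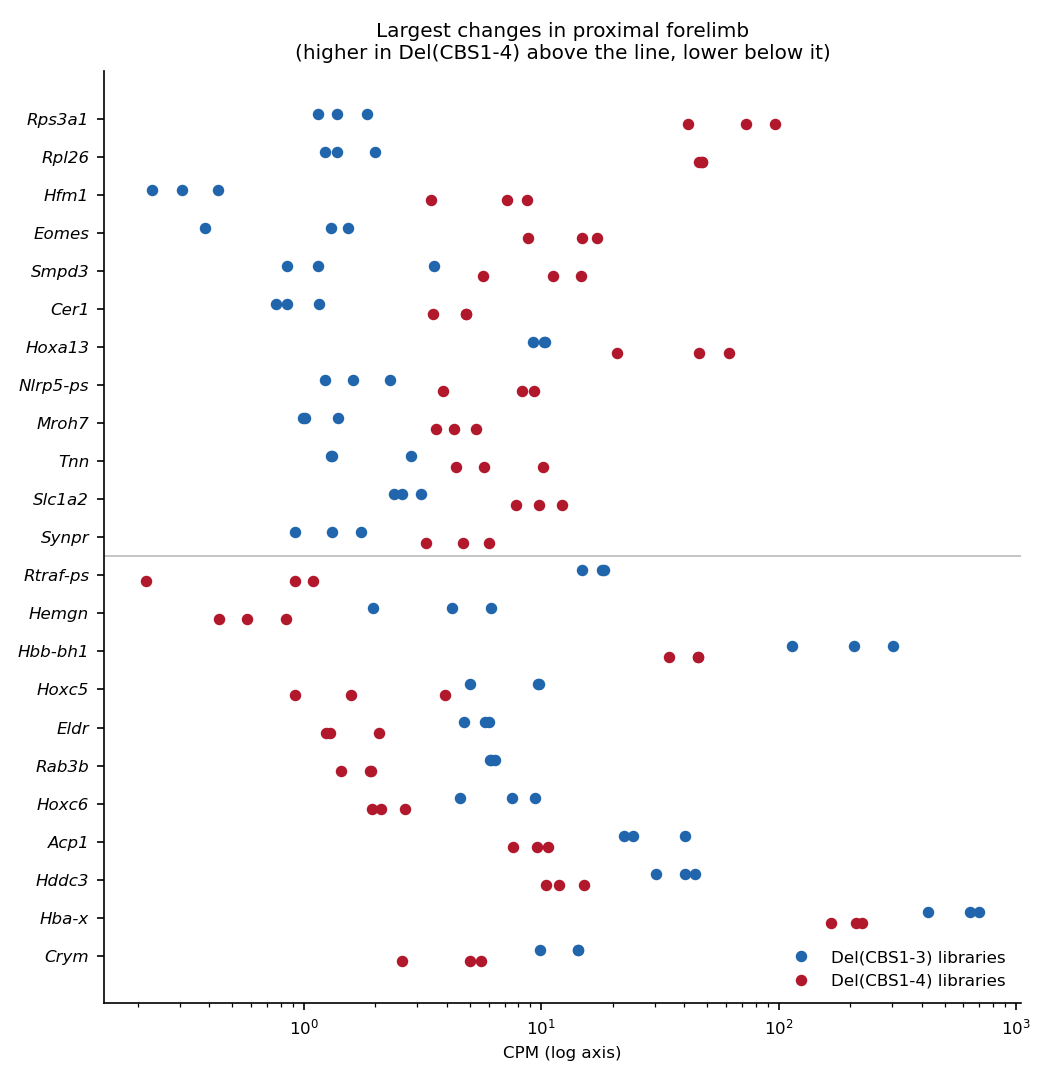
Level (CPM, log axis) of the 12 named genes with the largest increase and 11 of the 12 with the largest decrease, each gene in a row with its 3 Del(CBS1-3) libraries (blue) and 3 Del(CBS1-4) libraries (red). No gene drawn has overlapping groups, as the rule for naming required, and Rps3a1, at 1.14 to 1.85 CPM against 41.4 to 96.4 CPM, has the largest increase drawn.

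Embryonic globins and a membrane transporter gene of red cells were lower in Del(CBS1-4). Of 12 erythroid markers tested, 4 were called lower and 0 higher (33.3% called), with a median log2FC of -0.43. Hbb-bh1, an embryonic beta-like globin, read 208, 114 and 302 CPM in Del(CBS1-3) and 45.6, 34.3 and 45.5 CPM in Del(CBS1-4) (log2FC -2.32, SE 0.45, adjusted p = 0.00461). Its level also varied widely within other genotypes, from 48.1 to 182 CPM in WT and from 58.3 to 178 CPM in Del(CBS1). Hba-x, the embryonic alpha-like globin, read 638, 426 and 700 CPM, and 224, 166 and 212 CPM (log2FC -1.56, SE 0.28, adjusted p = 0.00348). Slc4a1, the anion exchanger of the red cell membrane, had a log2FC of -0.99 (SE 0.21). Hemgn, a nuclear factor of red cell precursors that is not on the list, had a log2FC of -2.72 (SE 0.65), and its call was lost without Del(CBS1-3) replicate 3. The globins of definitive red cells did not pass the test: Hbb-bs averaged 57.3 and 87.8 CPM (adjusted p = 0.382), Hbb-bt 14.6 and 22.4 CPM (adjusted p = 0.158) and Hba-a1 155 and 153 CPM (adjusted p = 0.909). The summed level of the list ran from 2585 to 3203 CPM in Del(CBS1-3) and from 1644 to 2288 CPM in Del(CBS1-4), and 5 of its genes were called lower in distal forelimb. The count of lower genes was also 4 in each run that left out 1 library.

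Cartilage genes were higher. Of 24 chondrogenesis genes tested, 11 were called higher and 0 lower (45.8% called, median log2FC 0.49). Fgfr3, a receptor that restrains growth plate chondrocytes, read 60.4, 73.3 and 66.5 CPM in Del(CBS1-3) and 88.0, 80.3 and 110 CPM in Del(CBS1-4) (log2FC 0.47, SE 0.10, adjusted p = 0.00903). Col11a2, a cartilage collagen, read 149, 245 and 142 CPM, and 259, 233 and 464 CPM (log2FC 0.83, SE 0.23, adjusted p = 0.0264). Col9a3 had a log2FC of 0.61 (SE 0.17) and Ihh, the hedgehog ligand of prehypertrophic chondrocytes, one of 0.66 (SE 0.19). Sox9, the master regulator of the lineage, averaged 265 and 220 CPM and was not called (log2FC -0.28, adjusted p = 0.0803). Del(CBS1-3) replicate 2 was the highest of its group and overlapped the lowest Del(CBS1-4) library in Col11a2. The count was 17 without that library, 1 without Del(CBS1-3) replicate 1 or 3 or Del(CBS1-4) replicate 3, and 4 without Del(CBS1-4) replicate 1. It was 3 with the distal minus proximal score as a covariate and 2 with sex, and only the 6 libraries gave 2 higher and 1 lower, and DESeq2 7 higher and 1 lower. In distal forelimb 14 of 23 were called higher and 0 lower, where 6.11% of all genes tested were called higher.

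Called genes of tendon and of the Hedgehog pathway were also higher, and those of the joint mostly so. Of 19 tendon and connective tissue genes, 5 were called higher and 0 lower (26.3% called), against 6.5% of all genes tested called higher and 7.29% lower. Among the 5 were Col1a1 (log2FC 0.78, SE 0.19), Fmod (0.68, SE 0.18), Col5a2 (0.67, SE 0.18) and Col5a1 (0.49, SE 0.14), which encode collagens and a collagen-binding proteoglycan. None was called without Del(CBS1-3) replicate 1 or 3 or Del(CBS1-4) replicate 3, 1 without Del(CBS1-4) replicate 1, and 9 without Del(CBS1-3) replicate 2. Of 13 genes of the joint interzone, the tissue of the future joint, 5 were called higher and 1 lower (46.2% called). Wnt16 read 1.91, 2.46 and 2.85 CPM, and 7.03, 6.17 and 5.47 CPM (log2FC 1.36, SE 0.29, adjusted p = 0.00688). Enpp2 (0.52, SE 0.13) and Erg (0.36, SE 0.10) were higher and Osr1, a zinc finger factor of limb mesenchyme, was lower (-0.40, SE 0.10). The joint count of higher genes was 1 without Del(CBS1-3) replicate 3 or Del(CBS1-4) replicate 1 and 2 without Del(CBS1-3) replicate 1. The Hedgehog pathway had 3 of 14 genes called higher (21.4%), Cdon (0.43, SE 0.11), Ihh and Gli3 (0.28, SE 0.08), and 0 without Del(CBS1-3) replicate 1 or 3 or Del(CBS1-4) replicate 1. Under the distal minus proximal score as a covariate, the counts of higher genes were 0 for tendon, 1 for the joint and 0 for Hedgehog.

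Several genes of proximal limb identity fell. Of 20 tested, 8 were called lower and 0 higher (40% called, median log2FC -0.19). Shox2, which patterns the upper arm, read 427, 384 and 427 CPM in Del(CBS1-3) and 249, 285 and 270 CPM in Del(CBS1-4) (log2FC -0.63, SE 0.11, adjusted p = 0.00319). Tbx15, a T-box gene of limb and skeleton, read 361, 311 and 351 CPM, and 204, 248 and 282 CPM (log2FC -0.48, SE 0.11, adjusted p = 0.00954). Alx4, a homeobox gene of the anterior limb, had a log2FC of -0.91 (SE 0.21). The groups did not overlap for any of these 3 genes. The count was 2 with the distal minus proximal score as a covariate, which is built in part from these genes, and also 2 without Del(CBS1-4) replicate 1. It was 3 without Del(CBS1-3) replicate 3 or with only the 6 libraries, and 4 without Del(CBS1-3) replicate 1. Shox2 was called in all 3 of these runs without a library, while Tbx15 lost its call without Del(CBS1-4) replicate 1 and Alx4 without Del(CBS1-3) replicate 3.

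Genes of distal limb identity were mixed. Of 27 tested, 2 were called higher and 1 lower (11.1% called, median log2FC 0.15). This share was below the 13.8% of all genes tested, so the genes named next are single genes rather than a result of the list. Sall1, a zinc finger factor of the distal limb bud, read 99.5, 80.6 and 90.6 CPM in Del(CBS1-3) and 201, 158 and 97.3 CPM in Del(CBS1-4) (log2FC 0.75, SE 0.18, adjusted p = 0.0129). Jag1, a Notch ligand, had a log2FC of 0.68 (SE 0.14). Aldh1a2, which makes retinoic acid, was lower (-0.71, SE 0.13), and Sall3 averaged 7.08 and 11.2 CPM and did not pass (adjusted p = 0.0937). Sall1 lost its call without Del(CBS1-4) replicate 1. The retinoic acid list had 4 of 16 genes called lower and 1 higher (31.2% called). Stra6, the retinol importer, read 85.0, 66.7 and 96.3 CPM, and 44.5, 53.7 and 41.6 CPM (log2FC -0.83, SE 0.16, adjusted p = 0.00406). The retinoic acid count of lower genes was 2 without Del(CBS1-4) replicate 1.

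Of 28 Hox genes outside the Hoxd cluster, 5 were called higher and 3 lower (28.6% called, against 13.8% of all genes tested). All 5 were Hoxa genes: Hoxa13, Hoxa9, Hoxa5, Hoxa3 and Hoxa2. Hoxa9, a Hox gene of the early limb bud, read 106, 86.9 and 103 CPM in Del(CBS1-3) and 148, 124 and 129 CPM in Del(CBS1-4) (log2FC 0.43, SE 0.08, adjusted p = 0.00348). Hoxb2 was lower (-0.99, SE 0.20), as were Hoxc5 and Hoxc6. The count of higher genes was 1 without Del(CBS1-4) replicate 1, and 2 without Del(CBS1-3) replicate 1 or 2, with the distal minus proximal score as a covariate or with only the 6 libraries.

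Genes of cell division and of cholesterol synthesis were lower. Of 16 proliferation genes, 9 were called lower and 0 higher (56.2% called, median log2FC -0.24), led by Pcna, the DNA polymerase clamp, at 77.4, 81.8 and 100 CPM in Del(CBS1-3) and 60.2, 64.6 and 52.4 CPM in Del(CBS1-4) (log2FC -0.56, SE 0.12, adjusted p = 0.00716). The count was 1 without Del(CBS1-4) replicate 1, 2 without Del(CBS1-3) replicate 3 or Del(CBS1-4) replicate 3, 5 without Del(CBS1-3) replicate 1 and 14 without Del(CBS1-4) replicate 2. Of 23 genes of cholesterol synthesis, 9 were called lower and 0 higher (39.1% called, median log2FC -0.28). Cyp51 read 148, 153 and 156 CPM, and 110, 122 and 113 CPM (log2FC -0.41, SE 0.06, adjusted p = 0.00162), and Fdft1, the squalene synthase gene, had a log2FC of -0.47 (SE 0.09). The cholesterol count was 5 without Del(CBS1-4) replicate 1. With the distal minus proximal score as a covariate, 2 proliferation and 4 cholesterol genes were called lower, and with only the 6 libraries 4 and 10.

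Nuclear genes of the respiratory chain were the list with the most decreases: 43 of 71 tested were called lower and 1 higher (62% called, median log2FC -0.22). Cox8a, a subunit of cytochrome oxidase, averaged 98.7 and 76.0 CPM (log2FC -0.38, SE 0.06, adjusted p = 0.00251). The exception was Atp5g1, a proton channel subunit with copies in the genome, at 2.89 and 7.96 CPM (log2FC 1.46, SE 0.25). Cytosolic ribosomal protein genes had 27 of 81 called lower and 3 higher (37% called, median log2FC -0.18). The 3 called higher were Rps3a1, Rpl26 and Rps18, of which Rps18 averaged 4.48 and 26.7 CPM. Rps18 read 4.73, 4.62 and 4.08 CPM in Del(CBS1-3) and 38.1, 4.44 and 37.5 CPM in Del(CBS1-4). Its level in Del(CBS1-4) replicate 2 thus lay within the Del(CBS1-3) range. The count of lower respiratory chain genes was 19 without Del(CBS1-3) replicate 3, 20 without Del(CBS1-4) replicate 1 or 3, 26 and 28 without Del(CBS1-3) replicate 1 and 2, and 35 without Del(CBS1-4) replicate 2. That of ribosomal genes was 12 without Del(CBS1-3) replicate 3 or Del(CBS1-4) replicate 1 and between 18 and 22 otherwise. With the distal minus proximal score as a covariate, 14 respiratory chain and 8 ribosomal genes were called lower, and with only the 6 libraries 26 and 15. The part of exonic length, given above, in these counts was not tested.

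Genes of a splicing list were mostly higher. Of 28 tested genes of a list headed splicing kinases and speckle transcripts, 19 were called higher and 0 lower (67.9% called, median log2FC 0.24). The list also holds imprinted non-coding RNAs, some of them among the 19, which are not splicing genes. Clk1, a kinase that phosphorylates splicing factors, read 127, 115 and 109 CPM in Del(CBS1-3) and 168, 165 and 172 CPM in Del(CBS1-4) (log2FC 0.52, SE 0.07, adjusted p = 0.00136). Pnisr read 263, 225 and 250 CPM, and 377, 338 and 366 CPM (log2FC 0.55, SE 0.07). Ttc14 (0.56, SE 0.08) and Leng8 (0.48, SE 0.07) were as different. In distal forelimb 16 of the 28 were called higher, where 6.11% of all genes tested were. With the distal minus proximal score as a covariate 15 were called, with only the 6 libraries 14, and between 15 and 18 on leaving out a library. The lists of cholesterol synthesis, respiratory chain, ribosomal proteins and splicing were drawn up after the gene results had been seen, so their counts describe what was found and support nothing further.

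**Figure D4:**
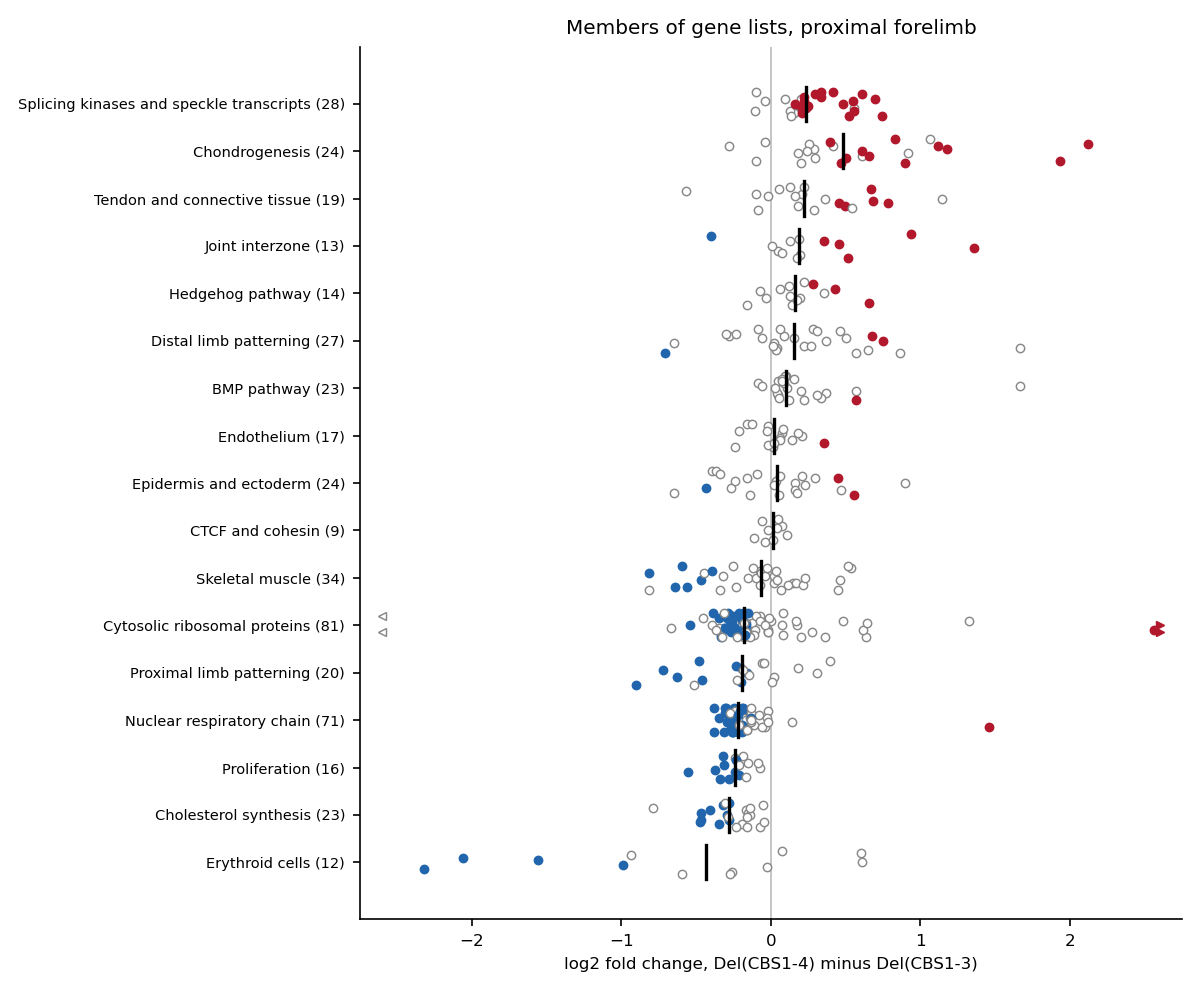
Log2 fold change (Del(CBS1-4) minus Del(CBS1-3), horizontal axis) of each tested member of 17 gene lists, with the number tested in brackets. Filled points were called higher (red) or lower (blue), open points were not called, triangles lie beyond the axis at 2.6, and the black bar is the median of the list. Splicing, cartilage and tendon lists lie to the right, and proliferation, respiratory chain, cholesterol and red cell lists to the left.

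Markers of other cell types that the dissection could hold were read beside these groups. Of 34 skeletal muscle genes, 6 were called lower and 0 higher (17.6% called, against 13.8% of all genes tested, 7.29% lower). Among the 6 were Met, Myod1, Myog, Actc1 and Lbx1, which act in muscle precursors and early muscle. Myod1, a master gene of muscle fate, read 99.1, 124 and 114 CPM, and 71.0, 75.6 and 82.7 CPM (log2FC -0.56, SE 0.13, adjusted p = 0.0102), and no muscle gene was called lower without Del(CBS1-4) replicate 1, and 3 were without Del(CBS1-3) replicate 1 or 3. None was called lower with the distal minus proximal score as a covariate. The summed muscle level ran from 3426 to 5072 CPM in Del(CBS1-3) and from 3279 to 4492 CPM in Del(CBS1-4), so these sums overlapped. The sums of the endothelial list (696 to 851 CPM against 747 to 831 CPM), the epidermal list (809 to 991 against 909 to 1023 CPM) and the leukocyte list (145 to 184 against 137 to 173 CPM) overlapped as well. Endothelial genes had 1 of 17 called, epidermal genes 3 of 24 and leukocyte genes 1 of 16, of which Coro1a fell (log2FC -0.72, SE 0.12). Nerve and Schwann cell genes had 2 of 13 called higher and 1 lower (23.1% called). The neuronal genes Nefm and Stmn2 rose by 1.27 (SE 0.18) and 0.97 (SE 0.27) on the log2 scale. The neuronal tubulin gene Tubb3 fell, from 10.3, 9.03 and 7.69 CPM to 6.72, 5.74 and 5.91 CPM (log2FC -0.56, SE 0.17). Stmn2 lost its call without Del(CBS1-3) replicate 1 or 3 or Del(CBS1-4) replicate 1, and Tubb3 without any one library except Del(CBS1-3) replicate 3. No marker of the muscle, endothelial, epidermal, leukocyte or erythroid lists in the count table was at 0 in all 6 libraries, and 1 of the nerve list was. The part of cell type shares in the gene differences was not tested.

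Of the remaining lists, immediate early and heat shock genes (26.7% called) and Polycomb genes (23.8%) had shares above the 13.8% of all genes tested, and CTCF and cohesin (0%), BMP (4.35%), Wnt (6.67%) and hypoxia and glycolysis genes (11.1%) shares below it. None of the 9 tested genes of CTCF and cohesin was called: Ctcf itself averaged 199 and 195 CPM (log2FC -0.04, SE 0.05, adjusted p = 0.629), and Rad21, a cohesin subunit, had the smallest adjusted p, 0.083. By edgeR 2 of the 9 had an unadjusted p under 0.05, as did 4773 of all 15813 genes tested, and DESeq2 called 0. The BMP pathway had 1 of 23 genes called, Smad9 (log2FC 0.57, SE 0.15), and the Wnt pathway 2 of 30, Dkk3 higher (0.67, SE 0.16) and Sfrp1 lower (-0.33, SE 0.08). Polycomb genes, whose products repress Hox genes, had 3 of 21 called higher and 2 lower, led by Pcgf2 (0.24, SE 0.04) and Rbbp4 (-0.29, SE 0.06). Immediate early and heat shock genes had 1 higher and 3 lower of 15, among them Ier2 (-0.55, SE 0.09), and hypoxia and glycolysis genes 1 higher, Vegfa (0.43, SE 0.10), and 1 lower, Pkm (-0.23, SE 0.06), of 18. Of the genes named in this paragraph, Smad9, Dkk3, Sfrp1, Vegfa and Pkm lost their calls on leaving out 1 library, which was Del(CBS1-4) replicate 3 for Dkk3 and, among others, Del(CBS1-3) replicate 3 for the rest. A list of genes with close copies or with levels that vary between lines had 1 higher and 1 lower of 16.

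For the called genes as a whole, WT lay between the alleles. The WT mean was between those of Del(CBS1-3) and Del(CBS1-4) for 968 of the 1028 genes called higher and for 1090 of the 1153 called lower. The genes were picked for the distance between both alleles, so these positions are a description. The Del(CBS1-2) mean was nearer to Del(CBS1-4) for 71% of the genes called higher and 73% of those called lower, and the Del(CBS1-5) mean for 42.6% and 31.4%.

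In distal forelimb, the same pair of alleles differed in 1645 of 15361 genes (10.7%), 938 higher (6.11%) and 707 lower (4.6%). Of the 2150 proximal calls that were tested there, 716 were also called in the same direction and 22 in the opposite one, which is 34.3% of these proximal calls in either direction, and the 716 are 43.5% of the distal calls. Libraries with the same replicate number agreed in sex between the tissues in 18 of 18 pairs, so both tissues appear to come from the same embryos. The Hoxd genes called proximally were not called distally: Hoxd13 averaged 861 and 850 CPM there (log2FC -0.02, SE 0.08), Hoxd10 54.1 and 54.2 CPM (0.01, SE 0.07) and Evx2 94.3 and 113 CPM (0.26, adjusted p = 0.146). Hoxd11, not called proximally, was called lower distally (-0.37, SE 0.11, adjusted p = 0.0469). The test of the difference between tissues did not call any gene of the cluster, with adjusted p of 0.162 for Hoxd13, 0.259 for Hoxd10, 0.732 for Hoxd11 and 0.148 for Evx2.

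That test called 88 of 16292 genes (0.54%), and 195 with the embryo as a block. Among them were Hoxa13, with a tissue difference (proximal minus distal log2FC) of 2.12 (SE 0.48, adjusted p = 0.0309), and Eomes, at 5.18 (SE 0.83, adjusted p = 0.00229). With the embryo as a block these differences were 2.05 (adjusted p = 0.0201) and 5.18 (adjusted p = 0.0114). In distal forelimb Eomes fell, from a mean of 32.0 CPM to 11.1 CPM (log2FC -1.53), while Hoxa13 averaged 186 and 184 CPM. Rps3a1, Rpl26, the embryonic globins and the splicing kinases moved alike in both tissues, with distal log2FC of -2.21 for Hbb-bh1 and 0.42 for Clk1.

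**Figure D5:**
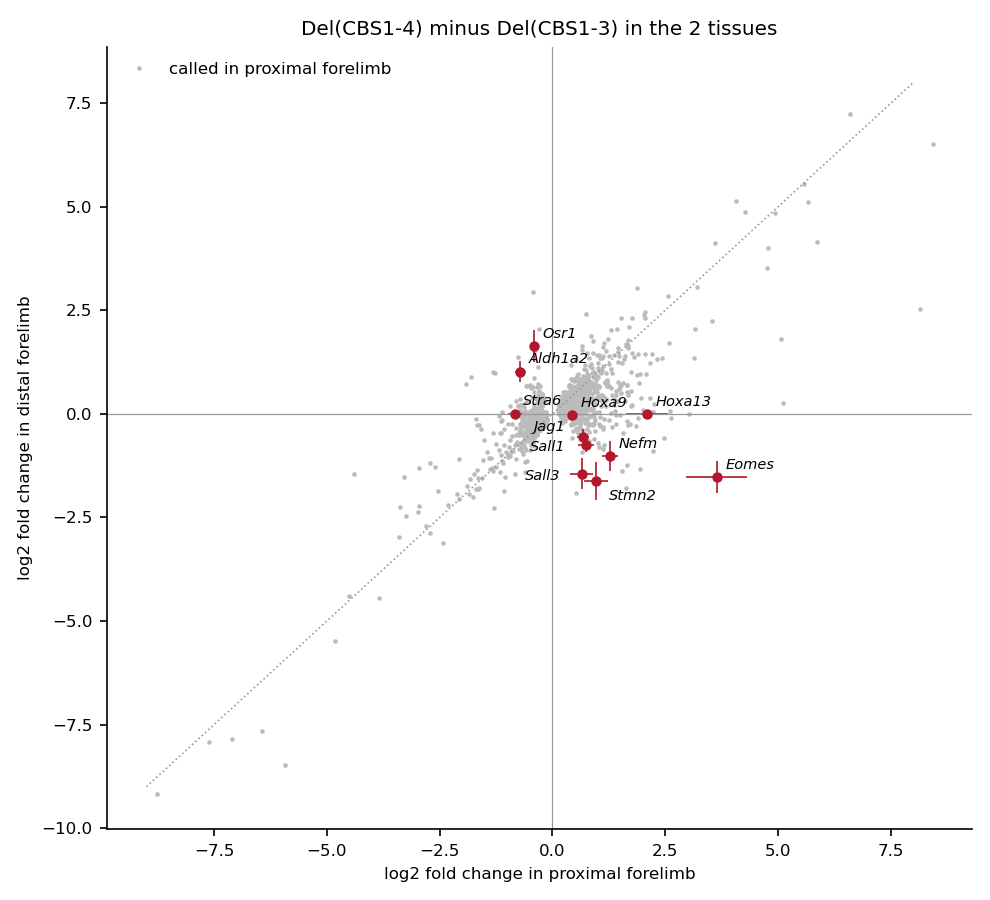
Log2 fold change of Del(CBS1-4) against Del(CBS1-3) in distal forelimb (vertical axis) against that in proximal forelimb (horizontal axis). Grey points are genes called in proximal forelimb, the dotted line marks equal change, and red points with SE bars are 11 named or listed genes whose change differed between tissues, of which Sall3 was not called proximally. Of the red points, Eomes lies furthest from the line, at 3.64 and -1.53, and Hoxa13 lies at 2.10 and -0.01.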

How the data were processed

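RNA-seq was made from E12.5 forelimb tissue in 36 libraries, 12 groups of 3. Per the submitters' processing notes, the tools named are cutadapt 1.16, STAR 2.7.0, Cufflinks 2.2.1 and bedtools 2.27.1, with the build mm10. The authors deposited whole-number read counts per gene, and whether counting used strand is not stated, so overlapping and antisense genes may share reads. The authors also deposited FPKM values, which hold 4222 genes more, on X, Y and the mitochondrial genome. edgeR 4.0.16 (R 4.3.3; TMM, filterByExpr, quasi-likelihood) was fitted to the counts of the 18 proximal libraries, since all genotypes then share one estimate of the spread, and likewise to the distal libraries and, for the tissue difference, to all 36. Benjamini-Hochberg adjustment ran over all genes tested. Total counts over the series ran from 11062069 to 17727891. DESeq2 1.42.0 and limma 3.58.1 (log2 of FPKM plus 1 or 0.1, genes averaging at least 1 FPKM) were alternatives. The fits were tested on simulated data. Same-numbered proximal and distal libraries deviated together (correlations 0.235 to 0.731), with the number taken from the titles, so the embryo block was used between tissues. Named were the Hoxd genes, Evx2, Lnpk, called neighbours, per direction the 12 largest called changes without overlap between groups and with a mean of at least 50 counts, and up to 4 genes per list. Gm14396 and the remaining called list members, Sox9 and the globins, Actc1, Lbx1, Ctcf and Sall3 were named outside that rule, after their values were seen. Some genes are not reported here. The members and lists were chosen with earlier results of these data known. The lists of ribosomal proteins, respiratory chain, cholesterol synthesis and splicing, and the covariates sex and chondrogenesis, were added after seeing the data. Promoters came from RefSeq (GRCm38.p6), with 4 of 4 genes matched, and lengths and biotypes from GENCODE M21.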

Additional observations from a re-analysis of the deposited data

Results flagged for a closer look

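For 11 genes, all named or on the lists, the difference between the alleles was itself different between proximal and distal forelimb, by edgeR's test of the tissue difference (proximal minus distal log2 fold change, Benjamini-Hochberg adjusted over 16292 genes). All 11 were also called with the embryo as a block. Eomes differed by 5.18 (adjusted p = 0.00229), with opposite called changes in each tissue. Sall1 differed by 1.5 (adjusted p = 0.00659) and Stmn2 by 2.61 (adjusted p = 0.0244), and both were called higher proximally and lower distally. Aldh1a2 differed by -1.72 (adjusted p = 0.00863) and Osr1 by -2.03 (adjusted p = 0.00995), and both were called lower proximally and higher distally. Nefm differed by 2.3 (adjusted p = 0.00827) and Jag1 by 1.24 (adjusted p = 0.0244), both called higher proximally only. Stra6 differed by -0.83 (adjusted p = 0.0309), Hoxa13 by 2.12 (adjusted p = 0.0309) and Hoxa9 by 0.48 (adjusted p = 0.0482), each with a distal log2 fold change between -0.031 and 0.008. Sall3 differed by 2.1 (adjusted p = 0.0411) and was called, lower, distally only (log2 fold change -1.44).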

How the results depend on the processing

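Against 2181 genes called in proximal forelimb, 1172 were called when only the 6 libraries of both groups were fitted, 653 with the distal minus proximal score as a covariate, and, with covariates chosen after seeing the data, 1452 with sex and 138 with the distal minus proximal and chondrogenesis scores. Leaving out 1 library gave 822 to 2140. The 2 Hoxd calls became 1 with limma on either FPKM scale, 0 with the distal minus proximal score, 1 with sex, 1 with both scores, and 0 to 2 without a library. In distal forelimb, leaving out a library gave 286 to 1901 calls against 1645. The tissue difference, 88 genes, came to 191 with DESeq2, 573 with no filter on low counts, 195 with the embryo as replicate block, and 14 to 234 without a library. With both scores, all 24 of the largest named changes lost their calls, Rps3a1, Rpl26 and Rtraf-ps among them. Krt14 turned to -0.038 (adjusted p = 0.91) and Hsph1 to 0.041 (adjusted p = 0.846) in that fit. Both scores come from the same libraries, so a fit with them cannot separate tissue make-up from the allele. The cause of these changes was not tested. DESeq2, RLE factors, no filter and FPKM gave 1977 to 2667 proximal calls, but not all of the same genes. Shared with the reported calls in direction were 2056 of 2327 with DESeq2, 2165 of 2181 with RLE factors, 1797 of 2667 with no filter and 1424 of 1993 with limma on FPKM plus 1. With no filter, edgeR's adjusted p of Hoxd13 was 5.05e-50, against 0.0401 as reported, and the reason was not tested. With the replicate number as a block between alleles, 1787 proximal and 1264 distal genes were called and the Hoxd calls were 2. Same-numbered libraries of both alleles did not deviate together in proximal forelimb (correlations 0.177, -0.341 and -0.238), so the numbers do not pair them. Genes with few counts, such as Evx2 and Hoxd1, are limited by depth.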

Other observations

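The genes with the smallest p in edgeR's test were changed by modest amounts with little spread between embryos. Dusp11, an RNA phosphatase gene, read 154, 151 and 157 CPM in Del(CBS1-3) and 204, 197 and 204 CPM in Del(CBS1-4) (log2 fold change 0.38, SE 0.05, adjusted p = 0.000688). Nfat5, a transcription factor of the response to osmotic stress, read 212, 200 and 215 CPM, and 317, 300 and 319 CPM (0.57, SE 0.07, adjusted p = 0.000688). Klhl9, an adaptor of a ubiquitin ligase, was lower, at 196, 215 and 203 CPM against 105, 111 and 111 CPM (-0.91, SE 0.13, adjusted p = 0.00136), and its distal log2 fold change was -0.91 (adjusted p = 0.00924). Thbs3, a thrombospondin gene of the skeleton, had a log2 fold change of 0.68 (SE 0.09) and Prrt2, a synaptic gene, one of 0.77 (SE 0.10). These genes were picked for their p-values, after the results were seen.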
